A study of Mus musculus with 9 samples.

Results

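The metallothioneins Mt1 and Mt2, the zinc importers Slc39a4 and Slc39a1, the zinc exporters Slc30a1, Slc30a4 and Slc30a5, and the metal-sensing transcription factor Mtf1 were examined in the jejunum of 9 mice. They are 8 of the 15674 genes named on the array and were taken as the probe rows whose gene symbol is one of these names, which gave 10 probes. All animals were male mice of the outbred OF1 stock, aged 7 weeks and of generation 3 of a feeding trial, and each array held the RNA of 1 mouse. Mice 7, 8 and 10 had received feed B, mice 1, 3 and 4 feed K, and mice 4, 8 and 11 feed G, where equal numbers on different feeds are different mice. The meaning of the letters is not given in the labels, and no feed was taken as a control here. Per the study's methods the data set concerned a custom maize diet, but which feed contained it is not given in the sources used here. The time of day of sampling was not recorded, and food had been withheld for some hours beforehand, per the study's methods.

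Metallothioneins are small cysteine-rich proteins that bind zinc and copper in the cytosol, and their genes are among the most metal-inducible ones known. Proteins of the Slc39 (ZIP) family carry zinc into the cytosol, and those of the Slc30 (ZnT) family carry it out of the cytosol, across the cell membrane or into vesicles. Free zinc activates Mtf1, which binds metal response elements in the promoters of Mt1, Mt2 and Slc30a1, while glucocorticoids also induce both metallothionein genes. In the small intestine, Slc39a4 takes up dietary zinc at the brush border and Slc30a1 releases it at the basolateral membrane.

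Promoter sequences of the 3 classical Mtf1 targets among the members are shown because these include both whose feeds did not overlap under quantile normalization. They are RefSeq sequences of the GRCm38.p6 build and hold the 250 bases before the annotated start of each gene on its own strand. The capitals mark matches to the core of the metal response element, searched as TGCACNC and TGCGCNC on both strands.
Mt1, chr8:94178839-94179088, plus strand: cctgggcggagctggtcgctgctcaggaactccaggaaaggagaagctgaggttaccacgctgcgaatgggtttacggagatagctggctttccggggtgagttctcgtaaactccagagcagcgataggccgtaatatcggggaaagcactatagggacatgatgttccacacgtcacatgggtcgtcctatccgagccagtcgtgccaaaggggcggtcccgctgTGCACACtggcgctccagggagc
Mt2, chr8:94172368-94172617, plus strand: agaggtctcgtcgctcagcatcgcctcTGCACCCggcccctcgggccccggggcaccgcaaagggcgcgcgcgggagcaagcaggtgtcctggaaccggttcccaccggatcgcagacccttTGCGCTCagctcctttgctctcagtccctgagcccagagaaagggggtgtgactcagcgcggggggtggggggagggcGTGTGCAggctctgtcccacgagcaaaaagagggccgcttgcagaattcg
Slc30a1, chr1:191906531-191906780, plus strand: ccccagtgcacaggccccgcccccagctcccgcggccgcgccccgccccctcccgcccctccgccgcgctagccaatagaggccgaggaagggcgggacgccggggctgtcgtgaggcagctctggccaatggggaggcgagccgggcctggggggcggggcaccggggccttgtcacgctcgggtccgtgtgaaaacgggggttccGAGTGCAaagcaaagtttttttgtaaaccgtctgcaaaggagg

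Mt1 and Mt2 lie next to each other on chromosome 8, with 0 genes listed between them. When the 50 bases after the start were included, the Mt1 window held 3 core matches, 2 of them after the start, and 1.97% of all 32851 RefSeq windows of this length held at least as many. The Mt2 window held 4 matches, a number reached in 0.517% of the windows, and Slc30a1 held 2, reached in 7.11%. Of the other members, Slc30a4 held 3 matches, Slc30a5 held 1, and Slc39a1 and Mtf1 held 0 in these windows. At least 1 match was found in 25.7% of all windows, so 1 match is common. No match of one form overlapped a match of the other in these windows, and a match describes the sequence and is no measurement of binding. The main start site of Mt1 may lie downstream of the start annotated here, so that its count and positions hold for this window only. No window was used for Slc39a4.

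**Figure D1:**
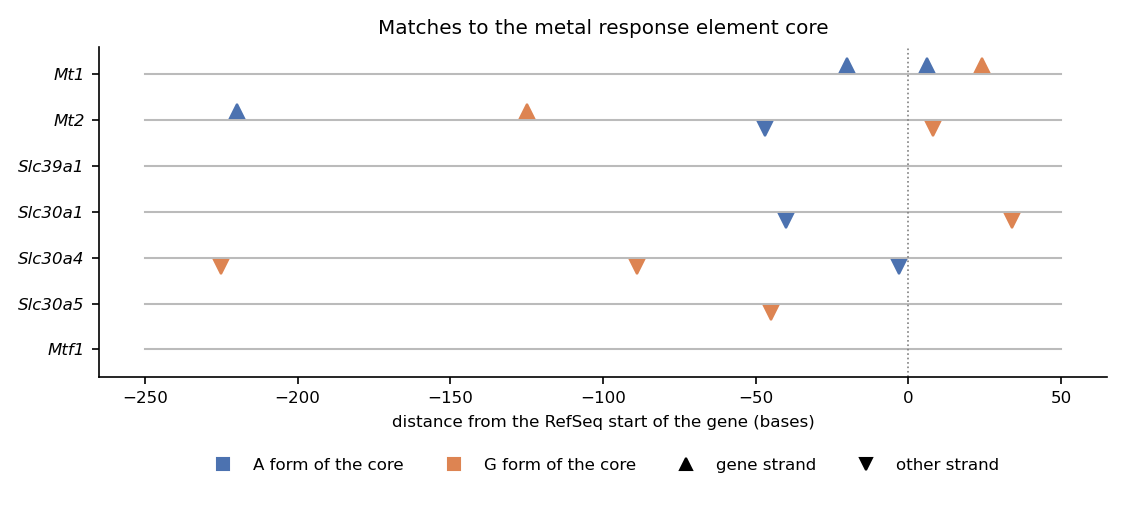
Positions of matches to the metal response element core in the windows of 7 members, in bases from the RefSeq start (dotted line). Triangles stand for single matches, upward on the strand of the gene and downward on the other strand, and the colours separate the A form (TGCACNC) from the G form (TGCGCNC). Matches of Mt1 lie close to the annotated start, which may not be its main start site, whereas those of Mt2 and Slc30a4 spread over the window.

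A gene was counted as detected on an array when its signal-to-noise ratio was 3 or more, and 7 of the 8 members were detected on all 9 arrays. The exception was Mt2, with 4 arrays. All values below are log2 signals after quantile normalization unless stated otherwise. The number of arrays limits the precision, and p-values rest on the spread between 3 mice per feed. In bulk tissue, fewer cells of a type and less RNA per cell cannot be told apart.

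Markers of the labelled tissue were read first. The enterocyte genes Fabp2, Fabp1, Vil (Vil1), Apoa4 and Slc5a1 were detected on all 9 arrays, whereas Akp3, an intestinal alkaline phosphatase, was detected on 0. Probes for 5 exocrine pancreas genes gave a detection on at most 2 arrays. The ileal gene Slc10a2, the bile acid importer, was highest in feed B mouse 10 at 12.05 and feed G mouse 11 at 12.66, compared with 6.53 to 9.73 in the other 7 mice. Fabp6, the ileal bile acid binding protein, was high in the same mice at 17.84 and 19.51 and also in feed B mouse 7 at 15.81, compared with 4.67 to 12.19 in the rest. The bile acid exporter subunit Slc51a, listed as D630035O19Rik, was 14.35 to 14.46 in all feed B mice and 14.50 in feed G mouse 11, compared with 13.31 to 14.01 in the other mice. Its partner Ostb (Slc51b) was highest in feed B mouse 10 and feed G mouse 11, at 16.58 and 16.06, and Fgf15 was detected in feed G mouse 11 only. The share of detected probes lay between 33.7% and 48.1% and was lowest on 2 feed B arrays. The 3 feed G arrays carry consecutive serial numbers, apart from the other 6, so array series and feed G cannot be told apart.

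No member passed the test for a difference between feeds. The moderated F test of limma gave adjusted p-values of 0.894 to 0.960 for the 8 members, and it called 0 of 9652 genes tested (0.0%), with 0.351 as the smallest adjusted p. At an unadjusted p under 0.05 the F test counted 1 member, Slc30a1, against a background of 5.37% of all genes. The comparison of feeds K and B counted 1 member (background 6.31%), that of feeds G and B counted 2 (background 5.74%), and that of feeds G and K counted 0 (background 4.54%). After adjustment, the 3 comparisons called 0 genes each (0.0%). The median difference of the members was 0.12 between feeds K and B (K minus B), -0.18 between G and B (G minus B) and -0.04 between G and K (G minus K), compared with 0.05, 0.06 and -0.01 over all genes tested.

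Under quantile normalization, all mice of one feed lay apart from all mice of both others for 2 of the 8 members, Mt1 and Slc30a1. The same was true of 775 of 9556 genes with a value on every array, a background of 8.11%. With median scaling and in the series table it held for Mt1 but not for Slc30a1.

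Mt1 had the highest values on feed G. Its log2 signals were 14.42, 15.48 and 13.97 in feed B mice 7, 8 and 10. They were 15.34, 14.24 and 15.12 in feed K mice 1, 3 and 4. In feed G mice 4, 8 and 11 they were 15.82, 15.53 and 15.62. All feed G mice were thus above all others, but the lowest of them exceeded feed B mouse 8 only narrowly. Feeds B and K overlapped over most of their range. The mean was 14.62 ± 0.77 on feed B, 14.90 ± 0.58 on feed K and 15.65 ± 0.15 on feed G (SD, n = 3 each), so the feed G mice were also the most alike.

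The difference in Mt1 between feeds G and B was 1.03 ± 0.42 (log2, SE), with an unadjusted p of 0.0388 and an adjusted p of 0.850 by limma. Between feeds G and K it was 0.76 ± 0.42 (adjusted p = 0.960), and between feeds K and B 0.27 ± 0.42 (adjusted p = 0.953). The F test gave an unadjusted p of 0.0919, and an exact permutation test of F over the 280 assignments of mice to feeds gave 0.118, where 0.00357 was the smallest p possible. Without feed B mouse 10, which had the lowest Mt1 and high ileal Slc10a2 and Fabp6 signals, the difference between feeds G and B was 0.71 (adjusted p = 0.564). The part of intestinal segment in these values was not tested. Without feed K mouse 3, the difference between feeds G and K was 0.43 in place of 0.76.

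The 2 Mt1 probes followed each other from mouse to mouse. Normalized signals of the brighter probe were 36221 to 97982 on feed B, 42784 to 90216 on feed K and 93171 to 119333 on feed G. Those of the dimmer probe were 7156 to 21191, 8706 to 18968 and 22520 to 27929. On the brighter probe feed G mouse 8 lay below feed B mouse 8, whereas on the dimmer probe all feed G mice were above all others. Over the 9 mice the probes correlated with r = 0.987, a description of 2 readings from the same RNA. The difference between feeds G and B was 0.97 on the brighter probe and 1.10 on the dimmer one.

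**Figure D2:**
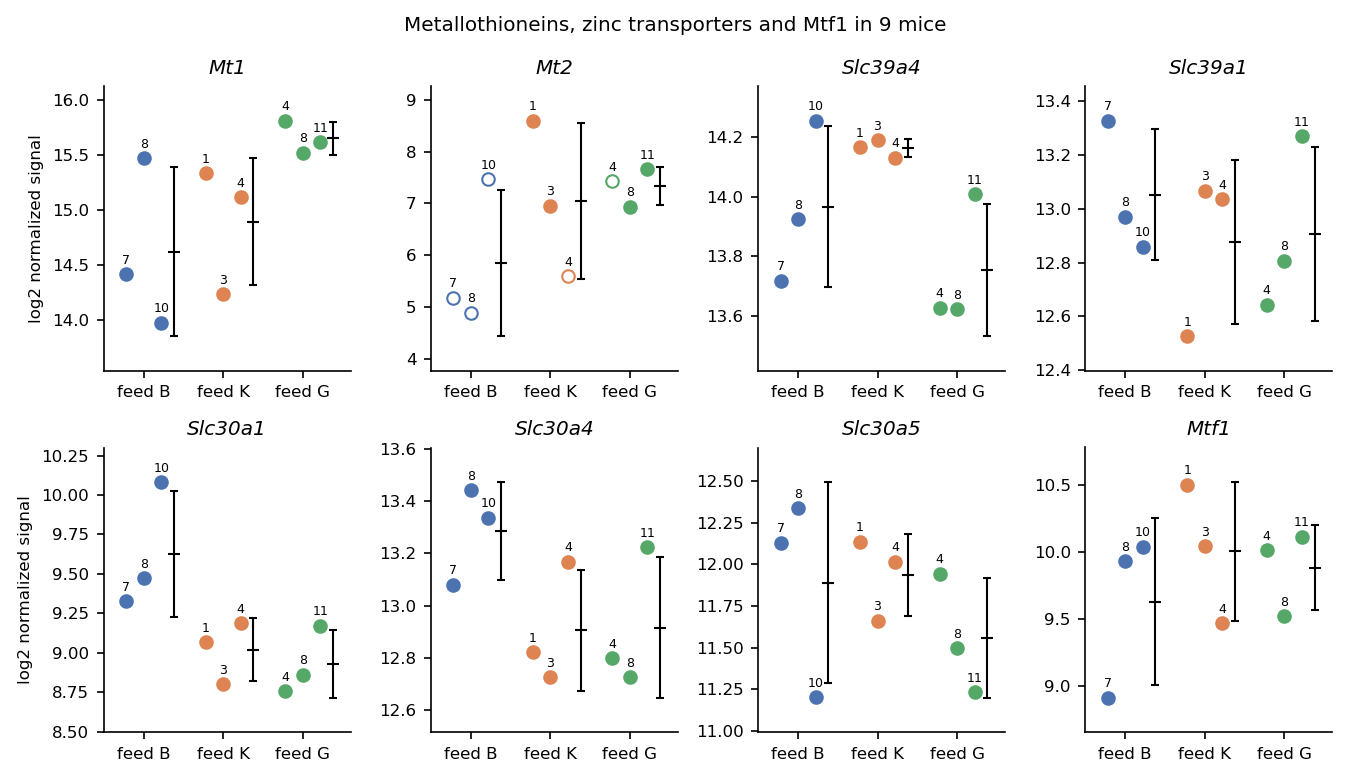
Log2 normalized signal of each member in the 9 mice, with 1 point per mouse labelled by its number and, beside each feed, the mean and SD of 3 mice. Open points mark mice in which the gene was not detected. Under quantile normalization, shown here, the feed G mice have the highest Mt1 and the feed B mice the highest Slc30a1. No feed lies apart from both others for the remaining members, although feed G lies below feed K for Slc39a4 under this quantile normalization. Each panel has its own axis, since levels of different genes cannot be compared.

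Mt2 was at the edge of detection. Its single probe, for which the array file gives no RefSeq accession, read 5.17, 4.89 and 7.47 in feed B mice 7, 8 and 10. In feed K mice 1, 3 and 4 it read 8.61, 6.96 and 5.60, and in feed G mice 4, 8 and 11 it read 7.43, 6.94 and 7.66. The signal-to-noise ratio reached 3 in feed K mice 1 and 3 and in feed G mice 8 and 11 only, with 4.90 as the highest value. It was detected on 0 of 3 feed B arrays and on 2 of 3 arrays of each other feed, so feed B was set at the lowest signal among detected probes where the probe was dimmer than that. Against that level the mean was 1.70-fold higher on feed K and 2.08-fold higher on feed G, but the feeds overlapped and the limma adjusted p-values were 0.851 and 0.880. These folds are not lower limits, since the means of feeds K and G include arrays without detection. The level set for feed B also came from other probes, and the Mt2 probe was not detected in feed B mouse 10 even at 7.47. When spots below a signal-to-noise ratio of 1 were left out, the measured log2 difference was 0.31 between feeds K and B and -0.13 between feeds G and B. Without feed K mouse 1 the difference between feeds K and B was 0.43.

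Mt1 and Mt2 therefore could not be compared over the mice as a pair, since Mt2 was below detection on 5 arrays. The related genes Mt3 and Mt4, the metallothioneins of brain and of stratified epithelia, were detected on 1 and 2 arrays.

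Slc30a1, the exporter that shares the Mtf1 response with the metallothioneins, had its highest values on feed B. The log2 signals were 9.33, 9.47 and 10.08 in feed B mice 7, 8 and 10. In feed K mice 1, 3 and 4 they were 9.07, 8.80 and 9.19. In feed G mice 4, 8 and 11 they were 8.76, 8.86 and 9.17. All feed B mice were above all others under quantile normalization, and feeds K and G overlapped. The means were 9.63 ± 0.40, 9.02 ± 0.20 and 8.93 ± 0.22 (SD, n = 3 each).

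The difference in Slc30a1 was -0.61 ± 0.25 between feeds K and B (limma, unadjusted p = 0.0393, adjusted p = 0.786) and -0.70 ± 0.25 between feeds G and B (unadjusted p = 0.0222, adjusted p = 0.802). Between feeds G and K it was -0.09 ± 0.25. The exact permutation test of F gave an unadjusted p of 0.0321. Leaving out feed B mouse 10 moved the difference between feeds K and B to -0.38 and that between feeds G and B to -0.47.

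The scaling of the arrays decided the sign or size of several of these values. When each array was scaled to its median instead, 88.3% of all genes tested had a higher mean on feed G than feed B, in place of 57.1%, and the median gene differed by 0.53. In the deposited table of the series that share was 78.8%, and the median gene differed by 0.30. Between feeds K and B the share with a higher mean on feed K was 83.3% with median scaling and 71.8% in the series table, in place of 56.9%. With median scaling, the difference in Mt1 between feeds G and B was 1.57 (unadjusted p = 0.00108, adjusted p = 0.249) and that in Slc30a1 was -0.13 (adjusted p = 0.802) with the feeds overlapping. Relative to the median gene, the Mt1 difference was 0.97, 1.04 and 1.04 under quantile normalization, median scaling and the series table. For Slc30a1 it was -0.76, -0.66 and -0.69. Subtracting the median gene gives the scalings a common centre, so the likeness of these values is largely built in and adds no weight. In the series table itself the Slc30a1 difference between feeds G and B was -0.39, and the feeds overlapped.

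**Figure D3:**
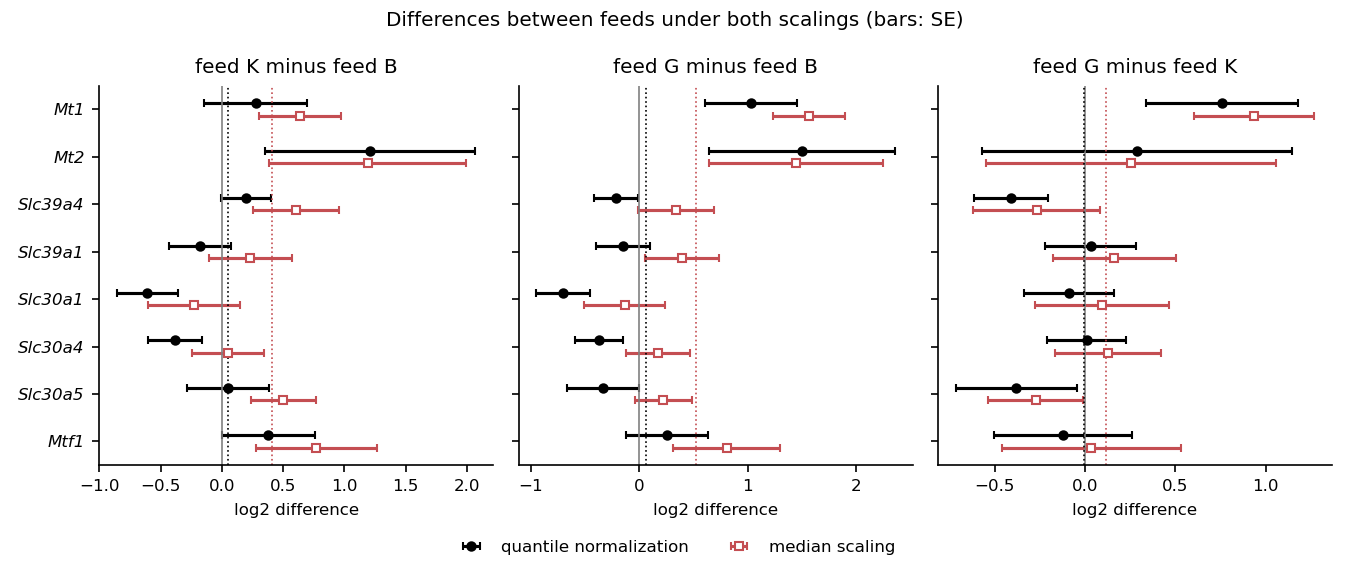
Differences between feeds (log2, bars show the SE of the limma fit) for the 8 members under quantile normalization (filled circles) and median scaling (open squares). Dotted lines give the median over all genes tested under each scaling; with median scaling most members shift to the right in the comparisons with feed B, together with the median gene.

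Under quantile normalization Slc39a4, the brush border importer, differed most between feeds G and K. It read 13.72, 13.93 and 14.26 in feed B mice 7, 8 and 10, and 14.17, 14.19 and 14.13 in feed K mice 1, 3 and 4. In feed G mice 4, 8 and 11 it read 13.63, 13.62 and 14.01. Under quantile normalization the feed G values all lay below those of feed K, and feed B spanned the range between. With median scaling feed G mouse 11 was at 14.34, above feed K mice 1 and 4 at 14.20 and 13.82. Feeds G and K also overlapped in the series table. The share of all genes whose feeds G and K do not overlap was not counted. The difference between feeds G and K was -0.41 ± 0.20 (limma, unadjusted p = 0.0780, adjusted p = 0.960). Between feeds G and B the sign depended on the scaling, with -0.21 under quantile normalization, 0.34 under median scaling and 0.08 in the series table. Between feeds K and B the difference was 0.20, 0.60 and 0.48 in the same order. It was the largest of the pair differences under median scaling and in the series table.

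Slc39a1, a widely expressed importer of the cell membrane, had means of 13.05 ± 0.24 on feed B, 12.88 ± 0.30 on feed K and 12.91 ± 0.32 on feed G (SD, n = 3 each). The feeds overlapped, and the largest difference between them was -0.18, between feeds K and B. Its 2 probes, unlike those of Mt1, did not follow each other over the mice (r = -0.10, n = 9 mice). The brighter probe had normalized signals of 12874 to 18810 over the 9 mice, a 1.46-fold range, and the dimmer probe had 2155 to 6661, a 3.09-fold range. In feed B mouse 8 the brighter probe had its highest value, at 14.20, and in feed K mouse 1 the dimmer probe had its lowest, at 11.07. The signal-to-noise ratio was 13.5 or higher for both probes on every array.

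**Figure D4:**
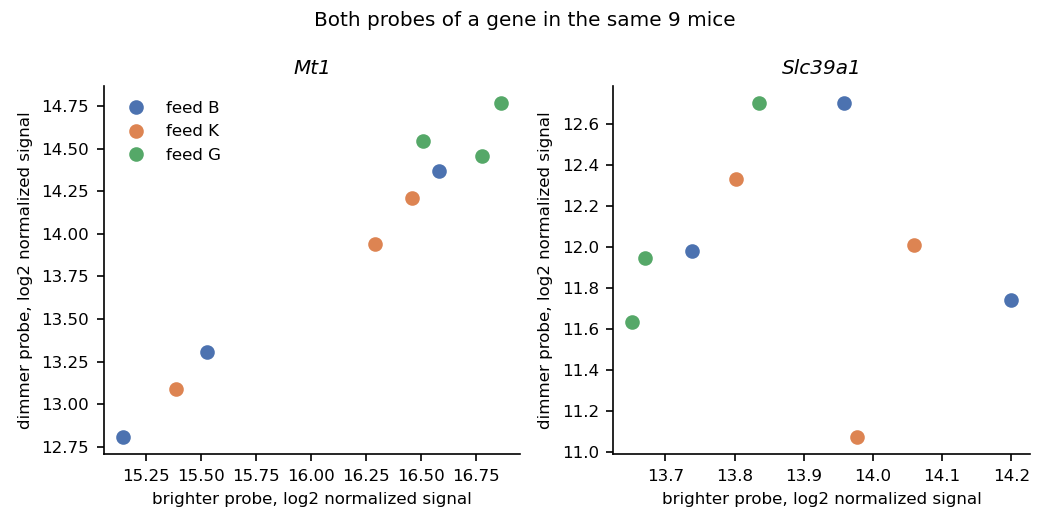
Log2 normalized signal of the dimmer against the brighter probe of Mt1 (left) and Slc39a1 (right), 1 point per mouse coloured by feed. The Mt1 probes lie along a line (r = 0.987), whereas the Slc39a1 probes scatter (r = -0.10).

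The exporters Slc30a4 and Slc30a5 load zinc into vesicles and into the secretory pathway. Slc30a4 read 13.08, 13.44 and 13.34 in feed B mice 7, 8 and 10, and 12.82, 12.73 and 13.17 in feed K mice 1, 3 and 4. In feed G mice 4, 8 and 11 it read 12.80, 12.73 and 13.22. Feed B had the highest mean, as for Slc30a1, but the feeds overlapped. The difference was -0.38 ± 0.22 between feeds K and B and -0.37 ± 0.22 between feeds G and B (limma adjusted p = 0.826 and 0.880). Under median scaling these became 0.05 and 0.18.

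Slc30a5 had means of 11.89 ± 0.60 on feed B, 11.94 ± 0.25 on feed K and 11.56 ± 0.36 on feed G (SD, n = 3 each). Its lowest value, 11.20, was in feed B mouse 10 and its second lowest, 11.23, in feed G mouse 11. These mice had the highest Slc10a2 and Fabp6. Feed B mouse 7, next to them in Fabp6, had a Slc30a5 value of 12.13. Its Slc10a2 value was 9.46, below feed K mouse 4 at 9.73. The part of intestinal segment in the Slc30a5 values was not tested. Mtf1 itself ranged from 8.91 in feed B mouse 7 to 10.50 in feed K mouse 1, with means of 9.63 ± 0.62, 10.00 ± 0.52 and 9.88 ± 0.32 on feeds B, K and G (SD, n = 3 each). The feeds overlapped for both genes.

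The members differed in how much they varied between mice. Mt1 had an SD of 0.67 (log2) over the 9 mice and a 3.59-fold range from the lowest to the highest signal, which placed it at percentile 93.3 among the 5887 genes detected on all 9 arrays. Mtf1 followed with an SD of 0.47 (percentile 80.6) and a 3.01-fold range. Slc30a5 and Slc30a1 both had an SD of 0.41 (percentiles 73.7 and 73.4), but that of Slc30a1 was 0.26 without feed B mouse 10. The transporters Slc30a4, Slc39a1 and Slc39a4 had SDs of 0.27, 0.27 and 0.25, below the median of 0.29, and each varied less than 1.75-fold between mice. This order holds for quantile normalization: with median scaling the SD was 0.45 for Slc39a4, 0.39 for Slc39a1, 0.28 for Slc30a4 and 0.31 for Slc30a5, and they were 0.39, 0.36, 0.24 and 0.31 in the series table. Mt1 and Mtf1 had the highest SDs of the 7 members detected on all arrays under each scaling, with 0.76 and 0.71 under median scaling and 0.72 and 0.64 in the series table. The SD of Slc39a1 is that of the mean of 2 probes that did not follow each other. Under quantile normalization its brighter probe alone had an SD of 0.18 and its dimmer probe 0.52. Mt2 had an SD of 1.26 and a 13.1-fold range, which includes arrays at noise level.

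**Figure D5:**
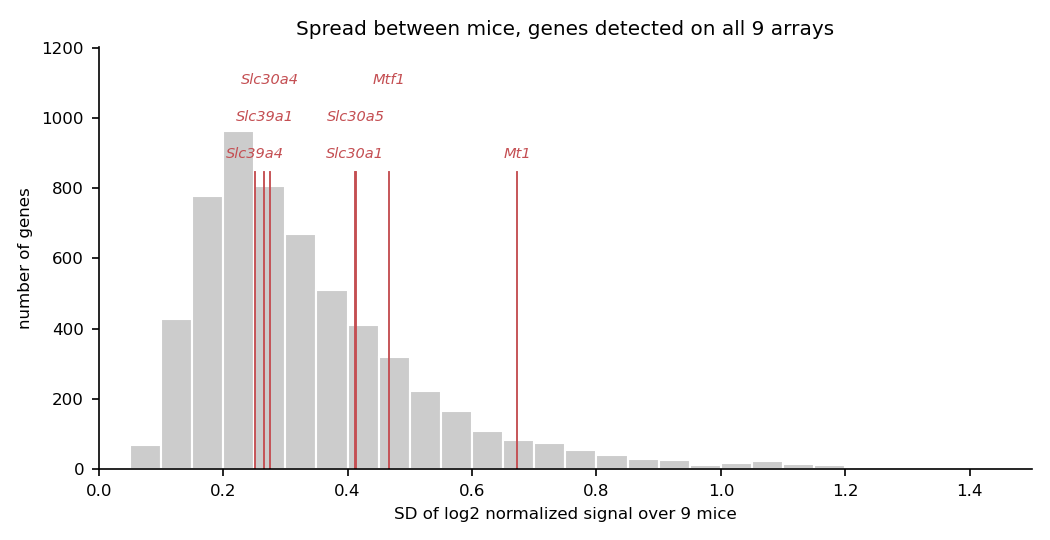
Number of genes by the SD of their log2 normalized signal over the 9 mice, for genes detected on all 9 arrays (grey bars), with the 7 members detected on all arrays as red lines. Mt1 lies in the right tail, and Slc39a4, Slc39a1 and Slc30a4 lie near the peak under this quantile normalization. Slc39a1 is drawn as the mean of its 2 probes, which did not follow each other, and genes beyond an SD of 1.5 are not drawn.

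Relations between members were computed over the 9 mice, with exact permutation p-values. Mt1 was set against Slc30a1, Slc39a4 and Mtf1, a family of 3 relations. Mt1 with Slc30a1 gave r = -0.52 (exact permutation p = 0.150, adjusted 0.250) and rho = -0.48 (p = 0.194, adjusted 0.291). It stayed at -0.53 without the 2 mice farthest from the Mt1 median and was -0.20 with the feed means subtracted. Mt1 with Slc39a4 gave r = -0.51 (exact permutation p = 0.167, adjusted 0.250) and rho = -0.72 (p = 0.0369, adjusted 0.111), but r was -0.05 without the 2 farthest mice, -0.30 within feeds, 0.12 with median scaling and -0.097 in the series table. Its r thus rested on those mice and on the scaling, and rho was not recomputed without them. With Mtf1 the values were r = 0.22 (exact permutation p = 0.568, adjusted 0.568) and rho = 0.08 (p = 0.843, adjusted 0.843), r = 0.73 without the 2 farthest mice, and 0.16 within feeds.

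Over all 21 pairs of the 7 members detected on all arrays, a family chosen after seeing the data, the pair with the smallest p was Slc30a1 with Slc30a4. It had r = 0.81 (exact permutation p = 0.00330, adjusted 0.0694) and rho = 0.85 (p = 0.00607, adjusted 0.128). The value was 0.91 without the 2 farthest mice and 0.62 within feeds. No pair passed the adjusted threshold of 0.05.

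As a description, the genes whose pattern over the 9 mice was most like that of Mt1, among 5792 others detected on all arrays, were 1810015M01Rik (r = 0.977), 2010109I03Rik (r = 0.946), Ccnt1 (r = 0.938), Btg2 (r = 0.936) and Hyal1 (r = 0.934). Csf1r was among the genes with the lowest values (r = -0.896). No such ranking is given for Mt2, which was below detection on 5 of 9 arrays. Among so many genes, high correlations over 9 mice can arise by chance.

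Other genes of the zinc families showed no member that passed the test. Of 15 with a probe, 11 were tested and 0 had an unadjusted p under 0.05 in the F test (background 5.37%), while 1 did between feeds K and B (background 6.31%) and 1 between feeds G and K (background 4.54%). The first was the importer Slc39a8, which was detected on 0 of 3 feed B arrays, 3 feed K arrays and 2 feed G arrays, so that its level on feed B is not known. The second was the importer Slc39a3, with -0.88 ± 0.34 (log2, SE, limma adjusted p = 0.960), and both are named after their values were seen. The median difference between feeds G and B was -0.20, with 4 genes higher and 7 lower. Among those detected on all arrays, Slc39a5, Slc39a3 and Slc30a6 varied most between mice (SD 0.63, 0.54 and 0.50), and Slc39a7, Slc30a9 and Slc39a11 varied least (SD 0.20, 0.25 and 0.27). Slc39a5 is an importer of the basolateral membrane of enterocytes, Slc39a7 releases zinc from the endoplasmic reticulum, and Slc30a8, the exporter of insulin granules, was detected on 0 arrays.

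Copper is the other metal that metallothioneins bind. Of 7 copper genes tested, 0 had an unadjusted p under 0.05 in the F test (background 5.37%). Between feeds G and B 1 did (background 5.74%), Sod1, with -0.59 ± 0.24 (log2, SE, limma adjusted p = 0.850). In the F test the smallest p-values were those of Sod1, the copper-zinc superoxide dismutase (0.102), and Slc31a1, the copper importer (0.116). Both had their lowest means on feed G, at 10.26 and 12.90. Gclc and Sepw1, listed as further Mtf1-responsive genes, had F test p-values of 0.937 and 0.747 (limma, unadjusted), and their largest difference between feeds was -0.14, for Sepw1 between feeds G and B.

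Glucocorticoid-responsive genes were listed because they share that input with Mt1. Of 7 tested, 3 (Dsip1, Bteb1 and Fkbp5) had an unadjusted p under 0.05 in the F test, against a background of 5.37% of all genes, and 0 after adjustment. Fkbp5 was tested only because all 3 feed G arrays detected it, so its place in that count carries no weight. Dsip1 (Tsc22d3), a glucocorticoid-induced leucine zipper protein, read 10.38, 11.33 and 11.42 in feed B mice 7, 8 and 10, and 11.49, 11.14 and 11.04 in feed K mice 1, 3 and 4. In feed G mice 4, 8 and 11 it read 12.07, 12.11 and 11.66. All feed G mice were above all others under quantile normalization, and values under other scalings are not given here. For 8.11% of genes with a value on every array, 1 feed lay apart from both others in either direction. Dsip1 was picked by its F test p, so this separation adds no weight. Fkbp5, a chaperone partner of the glucocorticoid receptor, was detected on 3 of 3 feed G arrays, where its mean was 9.22, and on 0 arrays of feeds B and K. Bteb1 (Klf9) had means of 8.15, 9.35 and 9.78 (limma adjusted p = 0.894). The other genes tested, Sgk, Cebpd, Zfp36 and Dusp1, differed between feeds G and B by 0.31, 0.21, 0.13 and -0.07. Their unadjusted p-values in the limma F test were 0.120, 0.530, 0.782 and 0.973. The part of glucocorticoid tone in the Mt1 values was not tested.

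Cell type markers were read beside these values. Paneth cells store zinc in their granules, and 6 of 6 Paneth genes with a probe were detected on all arrays, with a summed normalized signal of 1084010 to 1291000 on feed B, 762769 to 1254650 on feed K and 271053 to 1471130 on feed G, lowest in feed G mouse 11. Of these 6 genes, 5 had a lower mean on feed G than feed B, compared with 4141 of 9652 genes tested. The median difference over the list was -0.91. Lzp-s (Lyz1), Itln, Defcr6 and Mmp7 had their lowest values in feed G mouse 11, at 14.38, 12.25, 17.61 and 12.83, whereas Pla2g2a did not. The list difference thus rests in part on that mouse. Ang4, a Paneth cell antimicrobial protein, differed by -2.56 ± 0.99 (log2, SE, limma unadjusted p = 0.0312, adjusted p = 0.841), and its lowest value was 10.03 in feed G mouse 11. Of the 6 enterocyte genes with a probe, 5 were detected on all arrays. Slc5a1, the brush border glucose importer, had means of 15.39, 16.53 and 16.34 on feeds B, K and G (limma F test, unadjusted p = 0.00894, adjusted p = 0.729). It differed by 0.95 between feeds G and B, compared with 0.03 for Vil, 0.21 for Fabp2, 0.16 for Apoa4 and -0.62 for Fabp1. All 5 had a higher mean on feed K than feed B, as did 56.9% of all genes tested, a share that was 83.3% with median scaling. The summed signal of the 4 goblet cell genes lay between 266837 and 301150 in all mice, and that of the 5 smooth muscle genes between 64486 and 109332. Among the 6 lymphocyte genes, 1 was detected on all arrays, and among the 5 fat cell genes, 3 were. The list of erythroid genes had its highest summed signal, 12290, in feed B mouse 10. Of the 3 genes listed for colon, Car1 was detected on 1 array, and Slc26a3 and Aqp4 were detected on all 9. The proximal transcription factor Gata4 was higher on feed K, with means of 9.40, 10.35 and 9.07 on feeds B, K and G (limma adjusted p = 0.729). Slc40a1, the other proximal gene with a probe, was lowest on feed K, with means of 10.1, 9.4 and 10.0 (limma F test, adjusted p = 0.894). The part of tissue composition in the members' values was not tested.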

How the data were processed

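Jejunal RNA of 9 mice was hybridised to single-colour Applied Biosystems arrays, 1 per mouse, with chemiluminescent detection. The authors deposited, for each array, signal intensity, its standard deviation as a signal, a signal-to-noise score and quality flags for 33012 probes, and a series table of intensity equal to the assay-normalized signal. The scale of that table's normalization is not known, and its column medians were 1.06 to 1.53. The submitters' processing notes name RMA, and its role is not given in the sources used here. After removal of spots flagged above 5000, intensities were quantile normalized over the arrays (arithmetic mean) and put on the log2 scale, and probes of a gene were averaged. Genes detected (signal-to-noise ratio from 3 upwards) on at least 3 arrays were tested with limma 3.58.1 in R 4.3.3 (moderated F and pair contrasts over all 9 mice, Benjamini-Hochberg at 0.05), checked on simulated data. Python 3.11.15 and scipy 1.17.1 served for the rest. The members, lists and tests were chosen with earlier results of these data known. Named genes are the members, listed genes with an unadjusted F test p under 0.05 or the extremes of p or SD in a list, and the 5 most and 2 least similar genes to Mt1 (the ranking for Mt2 was dropped for lack of detection), of which some are not reported here; Gata4, Slc5a1, Slc10a2 and other cell markers were named after their values were seen. The lists group genes by protein family, cell type, gut segment, metal or inducing input. Symbols were matched directly, through RefSeq transcript accessions or through RefSeq synonyms (GRCm38.p6). Alternatives were other scalings, probes, flags, floors, filters, tests and leaving out mice.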

Additional observations from a re-analysis of the deposited data

How the results depend on the processing

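No member passed an adjusted p of 0.05 by limma under any alternative that was run; the lowest was 0.249, for Mt1 between feeds G and B with median scaling. Over all genes, the counts called were 0 in the report. With genes detected on all 9 arrays they were 1 by the F test and 1 between feeds G and B. With spots at noise level left out they were 3 by the F test, 4 between feeds G and B and 3 between feeds G and K. The unmoderated F test gave 1, 1 and 1 for the same 3. Leaving out 1 mouse at a time gave 0 to 3 by the F test, 0 to 10 between feeds K and B, 0 to 3 between feeds G and B and 0 to 0 between feeds G and K, the highest counts all without feed B mouse 10.

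Several differences of members changed sign, most of them small, Mt2 between feeds G and B being the exception. With median scaling, Slc30a1 between feeds G and K became 0.095, Slc39a4 between feeds G and B 0.34, Slc30a4 0.051 between feeds K and B and 0.18 between feeds G and B, and r of Mt1 with Slc39a4 0.12. In the series table, Slc39a4 between feeds G and B became 0.082 and Slc30a4 between feeds G and K -0.0044. With spots at noise level left out, Mt2 between feeds G and B became -0.13. Without feed B mouse 10 and feed G mouse 11, a choice made after seeing the data, Mt1 between feeds K and B became -0.051 and Slc30a4 between feeds G and K -0.14. Leaving out 1 mouse at a time gave -0.050 to 0.70 for Mt1 between feeds K and B and -0.14 to 0.14 for Slc30a4 between feeds G and K. The cause of these changes was not tested. Mt1 between feeds G and B kept its sign under all 19 alternatives, at 0.71 to 1.57, as did Slc30a1, at -0.85 to -0.13.

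No paired analysis was possible because no pair of feeds shares more than 1 mouse number. A scan date or slide block was not run, since each array is its own unit and the files used here give no date.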
